A study of Danio rerio with 14 samples.

Results

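The transcripts described here encode chromatin regulators of the zebrafish larval eye, among them the Polycomb proteins and the DNA methyltransferases. They comprise 105 genes, read by 243 probes, of 8445 genes and 16913 probes in all. The genes were taken by symbol alone, on the platform's own or the current symbol. The rule used no measured value, but members and lists were chosen with earlier results of these data known. The symbols were those of chromobox genes (cbx), Polycomb genes (ezh, eed, suz12, rnf2, bmi1, pcgf, phc), histone deacetylases (hdac), sirtuins (sirt) and DNA methyltransferases (dnmt). Nucleosome remodellers and their relatives (smarc, chd), ARID proteins (arid) and histone demethylases and methyltransferases (kdm, kmt2, setd) were taken too. The rest were bromodomain proteins (brd), high mobility group proteins (hmga, hmgb, hmgn) and histone variants (h2af, h3f3). ring1 and the tet genes are not analysed here. Of the 105 genes, 67 were read by several probes and 38 by 1, and 19 carried an older symbol on the platform, such as dnmt4 for dnmt3bb.1, mll for kmt2a, h2afx for h2ax and setd8a for kmt5aa.

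All fish were of the strain Wild-type AB. One group was exposed to 350 mg/L propylthiouracil (PTU), which blocks thyroid hormone synthesis, and had its eyes sampled at the end of the exposure at 5 days post fertilization (dpf), and a second group, exposed likewise, was kept in clean water for 3 more days before its eyes were taken at 8 dpf. The control groups of 5 and 8 dpf had no PTU. Each group had 3 RNA extracts, each from the eyes of 10 larvae of 1 plate, and the 12 extracts were labelled on 14 arrays with 2 colours, of which 6 set PTU directly against control at 5 dpf and 4 did so at 8 dpf. Extracts are numbered 1 to 3 within their group, as the labels number the replicates. Levels are log2 values per extract, averaged over the probes of a gene and set to 0 at the mean of the control extracts of 5 dpf. They compare extracts for 1 gene and say nothing of how abundant a gene is beside another. Fold changes are log2 values of PTU over control with their standard error (SE, n = 3 extracts in each group), and adjusted p-values come from limma with Benjamini-Hochberg correction over all 8445 genes. "Rose", "fell" and "called" refer to an adjusted p under 0.05.

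Chromatin regulators set how tightly DNA is packed around histones and thereby which genes a cell can use. Polycomb repressive complex 2 (PRC2) methylates histone H3 at genes to be kept silent, and Polycomb repressive complex 1 (PRC1) binds this mark through its chromobox subunit. DNA methyltransferases write and copy cytosine methylation, histone deacetylases remove acetyl groups, bromodomain proteins read them, and SWI/SNF, ISWI and CHD enzymes move nucleosomes by using ATP. In the growing fish eye, dividing progenitors sit at the ciliary margin of the retina and in the lens epithelium, and many chromatin genes, such as dnmt1 and ezh2, are known to be used most in dividing cells.

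The arrays had median log2 ratios between -0.0116 and -0.0011, which the loess normalization within each array had set near 0. Turned to PTU over control, the direct arrays correlated over all probes with a median r of 0.749 at 5 dpf (range 0.595 to 0.833) and of 0.674 at 8 dpf (0.404 to 0.785). The array that held 8-dpf PTU extract 1 and 8-dpf control extract 2 had the largest residual SD, 0.406, where the others began at 0.196. Ratios give no absolute level. Measured here were 31 of 42 listed photoreceptor genes and 27 of 35 lens genes, but also 20 of 20 genes of skin and cornea and 19 of 24 of muscle. Lower shares were measured of the pigment genes (11 of 20), macrophages (14 of 26), brain outside the retina (9 of 27) and erythrocytes (5 of 17). A listed gene could be missing through the study's signal filter or for want of a probe with its symbol. The eye label could thus not be checked from these values. In a bulk extract, fewer cells of a type and less RNA per cell cannot be told apart, and other cell types moved with PTU too. At 5 dpf, 2 of 31 photoreceptor genes rose and 24 fell, 2 of 27 lens genes rose and 24 fell, 1 of 11 genes of the pigment epithelium and melanin rose and 9 fell, and 11 of 14 macrophage genes rose and none fell. Of 19 muscle genes 6 rose and none fell, and of 20 genes of skin and cornea 2 rose and 7 fell. At 8 dpf the photoreceptor genes went both ways, with 10 higher and 11 lower and a median log2 fold change of 0.07. The lens genes then had 3 rises and 20 falls, the pigment genes 2 and 4, the genes of skin and cornea 2 and 7, and all 14 macrophage genes were higher. No muscle gene was called at 8 dpf. The mean level of the macrophage genes ran from 1.09 to 1.18 in PTU extracts and from -0.07 to 0.04 in control extracts at 5 dpf, and from 2.06 to 2.17 in PTU extracts and from 0.13 to 0.18 in control extracts at 8 dpf. The control extracts of 5 dpf were uneven for other lists. Their mean level ran from -0.86 to 0.81 for muscle, -0.62 to 0.37 for erythrocytes and -0.48 to 0.25 for skin and cornea. In PTU extracts of 5 dpf these ran from 0.27 to 0.49, 0.11 to 0.42 and -0.26 to -0.16. What part these cells had in the values of the chromatin genes was not tested.

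At 5 dpf, 34 of the 105 chromatin genes rose in the eyes of PTU-treated fish and 15 fell. That is 32.4% of them rising, beside 24.2% of all genes, and 14.3% falling, beside 22.8% of all genes. The median log2 fold change was 0.087, against -0.001 over all genes, and the median size without regard to sign was 0.194, against 0.206. At 8 dpf, after recovery, 27 rose and 4 fell, or 25.7% beside 19.6% of all genes and 3.81% beside 13.2%. The median log2 fold change was then 0.031, against 0.008 over all genes. The median size at 8 dpf was 0.163, against 0.17 over all genes, so the sizes lay near those of all genes at both ages. A log2 size of 0.75 was passed by 7 of the called genes at 5 dpf and 5 at 8 dpf, counts not made over all genes.

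Across the 2 ages, 20 genes rose at both and 2 fell at both, setd7 and kdm4c. Another 13 rose at 5 dpf only, 12 fell at 5 dpf only and 6 rose at 8 dpf only. 1 gene, kmt2a, fell at 8 dpf only, brd2a rose at 5 dpf and fell at 8 dpf, hmgb1b fell at 5 dpf and rose at 8 dpf, and 49 genes were called at neither age. These patterns were not counted over all genes, so no share stands beside them. At the single ages, 24.2% of all genes rose at 5 dpf and 19.6% at 8 dpf, and 22.8% and 13.2% fell. PTU and control extracts did not overlap for 60 of the 105 genes at 5 dpf (42 above, 18 below) and for 36 at 8 dpf (25 above, 11 below), where 52.0% and 35.3% of all genes did not overlap.

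The counts moved with single extracts. Leaving out 5-dpf PTU extract 1, which took 4 of the 14 arrays with it, left 20 genes that rose and 7 that fell at 5 dpf. Of all genes 15.6% then rose and 15.7% fell, against 24.2% and 22.8% with all extracts. Leaving out 8-dpf control extract 2 or 8-dpf PTU extract 1 raised the falls at 8 dpf to 10 and 8. Of all genes 14.0% and 11.1% then fell, against 13.2% with all extracts. These 2 extracts shared the array of largest residual SD. Leaving out that array alone, an alternative chosen after seeing the data, gave 11 falls, beside 14.7% of all genes. Of the calls, 20 of 34 rises and 7 of 15 falls at 5 dpf, and 16 of 27 rises and 1 of 4 falls at 8 dpf, were kept whichever of the 12 extracts was left out. Calls that were lost without single extracts are marked below.

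**Figure D1:**
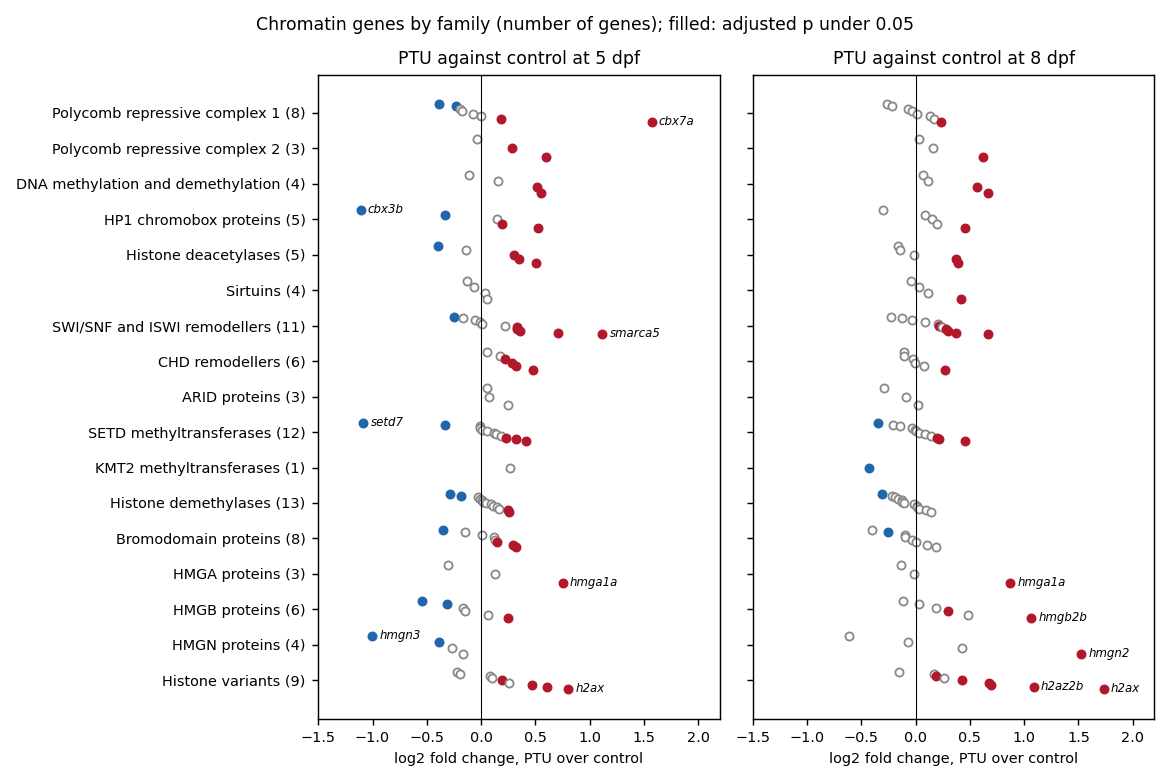
Log2 fold changes of PTU over control (x axis) for the 105 chromatin genes at 5 dpf (left) and 8 dpf (right), by family, with the number of genes in brackets. Each point is 1 gene, filled red (higher) or blue (lower) where the adjusted p was under 0.05. cbx7a, smarca5, hmga1a and h2ax lie to the right at 5 dpf and cbx3b, setd7 and hmgn3 to the left, and at 8 dpf the points farthest to the right are the histone variants h2ax and h2az2b and the HMG genes hmgn2, hmgb2b and hmga1a.

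Among the Polycomb genes, cbx7a changed by far the most, and it did so at 5 dpf only. cbx7a encodes a chromobox subunit by which PRC1 binds methylated histone H3. Its level was 1.76, 1.40 and 1.44 in the PTU extracts at 5 dpf, against 0.02, -0.01 and -0.01 in the control extracts. At 8 dpf it was 1.05, 1.17 and 1.01 in PTU extracts and 1.09, 1.26 and 1.09 in control extracts. The PTU eyes of 5 dpf thus lay above all other groups, and the control eyes of 8 dpf lay where the PTU eyes of 8 dpf lay. The log2 fold change was 1.57 ± 0.09 at 5 dpf (2.97-fold, adjusted p = 3.41e-09) and -0.07 ± 0.10 at 8 dpf (adjusted p = 0.636), and the difference between these effects was -1.64 ± 0.13 (adjusted p = 1.92e-06). All 3 probes of cbx7a rose at 5 dpf, by 1.09, 1.52 and 2.15 on the log2 scale, and the 6 direct arrays gave 1.37 to 1.79. In control eyes cbx7a was 1.09 ± 0.12 higher at 8 than at 5 dpf (adjusted p = 7e-05), the largest rise with age of the 105 genes.

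The other subunits of PRC1 changed little and in both directions. Of the 8 genes measured, cbx7a included, 2 were called higher and 2 lower at 5 dpf, and phc1 alone was called at 8 dpf. These were 25.0% each way at 5 dpf, beside 24.2% rising and 22.8% falling of all genes. At 8 dpf 12.5% rose, beside 19.6%. cbx8a, a second chromobox subunit, fell by 0.39 on the log2 scale at 5 dpf (SE 0.09, adjusted p = 0.00346), with levels of -0.33, -0.19 and -0.57 in PTU extracts, against 0.01, -0.03 and 0.02 in control extracts. That call was lost without 5-dpf control extract 1 (adjusted p = 0.0551) or 5-dpf PTU extract 1 (0.0502), and the value at 8 dpf was -0.27 (adjusted p = 0.0634). bmi1b, a ring finger partner of the catalytic subunit, fell by 0.23 at 5 dpf (adjusted p = 0.017, lost without 5-dpf control extract 2 or 3 or 5-dpf PTU extract 1 or 2, weakest at -0.19 with adjusted p = 0.159 without 5-dpf PTU extract 1) and stood at 0.13 at 8 dpf (adjusted p = 0.226). phc1, a polyhomeotic subunit, rose by 0.18 at 5 dpf and 0.23 at 8 dpf (adjusted p = 0.0318 and 0.0236), calls lost without 6 and 5 extracts, weakest at 5 dpf without 5-dpf control extract 1 (adjusted p = 0.160) and at 8 dpf without 8-dpf PTU extract 1 (0.12, adjusted p = 0.282). rnf2, the catalytic ubiquitin ligase, was at -0.17 and 0.01 at the 2 ages (adjusted p = 0.129 and 0.933). pcgf1 was at -0.07 and -0.22, phc2a at -0.19 and -0.03 and phc2b at 0.00 and 0.17, and none of these passed the test.

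In PRC2 the catalytic subunit moved and the scaffold did not pass the test. ezh2, the histone H3 methyltransferase, was at 0.65, 0.54 and 0.63 in PTU extracts at 5 dpf, against -0.06, -0.18 and 0.24 in control extracts, and at 0.52, 0.20 and 0.37 in PTU extracts at 8 dpf, against -0.19, -0.33 and -0.23 in control extracts. The groups did not overlap at either age. It rose by 0.60 ± 0.07 at 5 dpf (1.52-fold, adjusted p = 1.09e-05) and by 0.62 ± 0.08 at 8 dpf (adjusted p = 4.15e-05), and the 2 effects differed by 0.02 ± 0.11 (adjusted p = 0.915). eed, which binds the methyl mark, rose by 0.28 ± 0.07 at 5 dpf (adjusted p = 0.00395), a call lost without 5-dpf PTU extract 1 (0.20, adjusted p = 0.117), and stood at 0.16 at 8 dpf (adjusted p = 0.127). suz12b, the scaffold, was at -0.04 and 0.03 (adjusted p = 0.757 and 0.865).

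Of the 4 DNA methyltransferases, 2 rose at both ages. The share of rises was 50.0% at each age, beside 24.2% of all genes at 5 dpf and 19.6% at 8 dpf. dnmt1, the enzyme that copies methylation to the new strand after replication, was at 0.56, 0.42 and 0.57 in PTU extracts at 5 dpf, against 0.02, -0.05 and 0.04 in control extracts. At 8 dpf it was at 0.43, 0.28 and 0.32 in PTU extracts, against -0.20, -0.24 and -0.21 in control extracts. The rise was 0.51 ± 0.05 (adjusted p = 9.34e-07) and 0.57 ± 0.06 (adjusted p = 1.92e-06), all 5 probes were higher at both ages, and no extract ended either call. dnmt3bb.1, a de novo methyltransferase, rose by 0.55 ± 0.10 at 5 dpf (adjusted p = 0.000255) and 0.67 ± 0.11 at 8 dpf (adjusted p = 0.000207). Its levels were 0.60, 0.56 and 0.46 in PTU extracts, against -0.04, 0.07 and -0.03 in control extracts at 5 dpf, and 0.60, 0.17 and 0.13 in PTU extracts, against -0.23, -0.26 and -0.48 in control extracts at 8 dpf, so 8-dpf PTU extract 1 lay above the other recovered extracts. The other de novo enzymes did not pass the test, with dnmt3ab at -0.11 and 0.11 and dnmt3ba at 0.16 and 0.07 at the 2 ages.

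**Figure D2:**
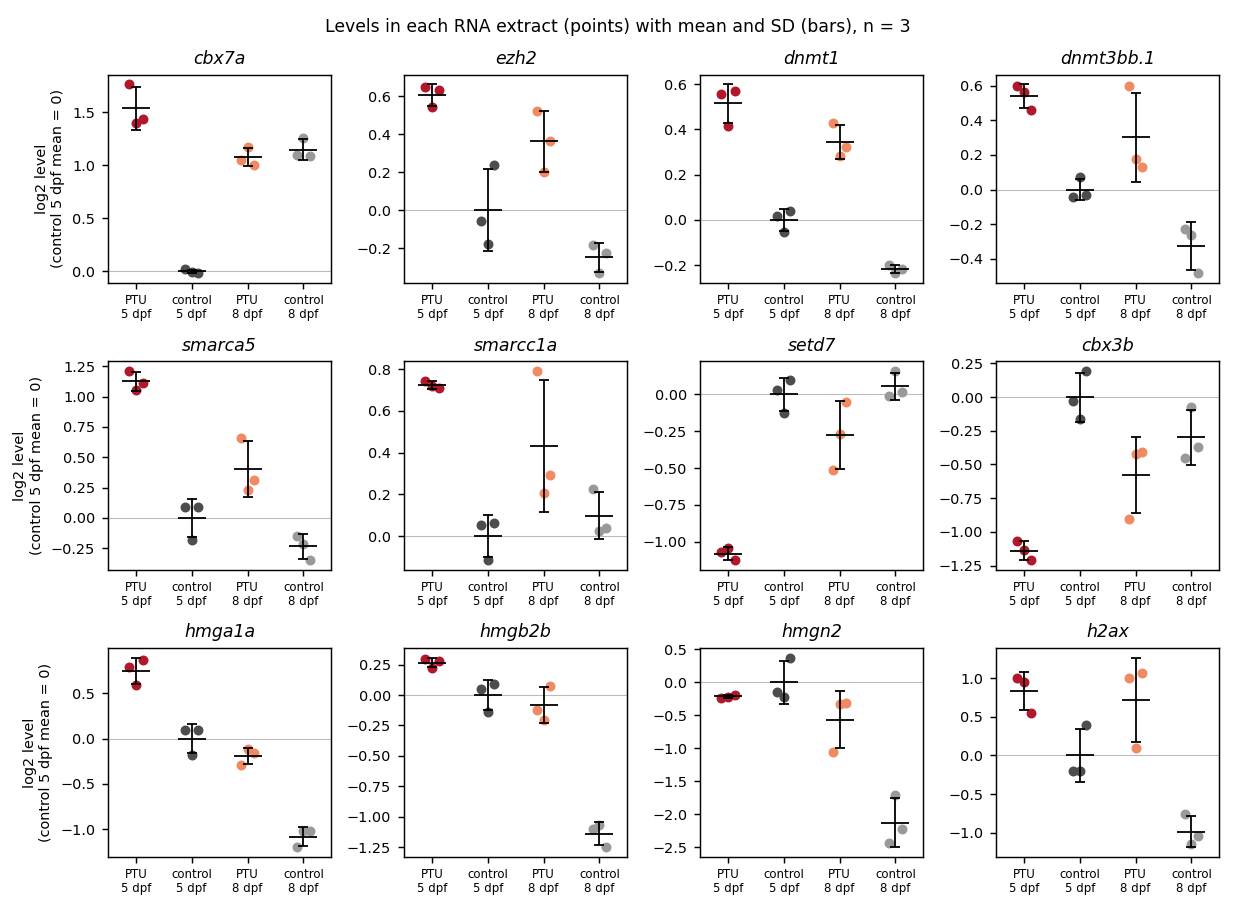
Log2 level in each of the 3 RNA extracts per group (points, y axis; mean of control 5 dpf = 0), with the mean and SD (bars), for 12 chromatin genes in PTU and control eyes of 5 dpf and PTU and control eyes of 8 dpf. In cbx7a only the PTU eyes of 5 dpf stand apart from the control eyes of the same age, in ezh2, dnmt1 and dnmt3bb.1 the PTU eyes lie above at both ages, and in hmgn2, hmgb2b and h2ax the control eyes of 8 dpf lie lowest.

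The chromobox genes of the HP1 type, which bind methylated histone H3 in heterochromatin, gave opposite signs for 2 paralogs. cbx3a rose by 0.52 ± 0.08 at 5 dpf (adjusted p = 7.23e-05) and by 0.46 ± 0.09 at 8 dpf (adjusted p = 0.000982). cbx3b had levels of -1.07, -1.14 and -1.21 in PTU extracts at 5 dpf, against -0.03, -0.16 and 0.20 in control extracts, a fall by 1.11 ± 0.11 (2.16-fold, adjusted p = 7.61e-07) that was the largest of the 105 genes. At 8 dpf it was at -0.91, -0.43 and -0.40 in PTU extracts, against -0.46, -0.07 and -0.37 in control extracts, and the groups overlapped (-0.30 ± 0.12, adjusted p = 0.0604). The change between the effects was 0.81 ± 0.16 (adjusted p = 0.00287). cbx3b was read by 1 probe. cbx1b fell by 0.33 at 5 dpf (adjusted p = 0.00166), the same way in all 4 of its probes, but without 5-dpf PTU extract 1 it was at -0.22 (adjusted p = 0.0888). cbx5 rose by 0.19 at 5 dpf (adjusted p = 0.0251, lost without 5 extracts, weakest at 0.17 with adjusted p = 0.184 without 5-dpf PTU extract 1), and cbx1a was at 0.14 and 0.20 and was not called.

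Of the 5 histone deacetylases, 3 rose and 1 fell at 5 dpf, or 60.0% and 20.0%, beside 24.2% and 22.8% of all genes. hdac1, the class I enzyme of several repressor complexes, was at 0.46, 0.53 and 0.58 in PTU extracts, against 0.15, -0.10 and -0.05 in control extracts. It rose by 0.51 ± 0.06 at 5 dpf (adjusted p = 4.01e-06) and by 0.37 ± 0.06 at 8 dpf (adjusted p = 0.00037), with its 3 probes between 0.24 and 0.84 at 5 dpf and between 0.06 and 0.84 at 8 dpf. hdac6, which deacetylates tubulin in the cytoplasm, rose by 0.35 and 0.39 at the 2 ages (adjusted p = 0.000806 and 0.00125). hdac4, a class II enzyme, rose by 0.30 at 5 dpf (adjusted p = 0.0147), lost without 5-dpf control extract 1, 5-dpf PTU extract 1 or 5-dpf PTU extract 3 (adjusted p = 0.0760, 0.0838 and 0.0737). The direct arrays of hdac4 at 5 dpf gave 0.36, 0.53 and 0.60 with PTU in the dye Cy3. With PTU in the dye Cy5 they gave 0.04, 0.12 and 0.22. hdac9b, also of class II, fell by 0.40 ± 0.06 at 5 dpf (adjusted p = 4.26e-05), with -0.38, -0.39 and -0.40 in PTU extracts, against 0.04, -0.01 and -0.03 in control extracts, and was at -0.15 at 8 dpf (adjusted p = 0.087). hdac3 was at -0.14 and -0.02 and was not called. None of the 4 sirtuins, which are NAD-dependent deacylases, was called at 5 dpf, where they lay between -0.13 and 0.05. sirt2 alone rose at 8 dpf, by 0.41 (adjusted p = 0.0128), and lost that call without 5-dpf control extract 1 (adjusted p = 0.0508), 8-dpf control extract 3 (0.0957) or 8-dpf PTU extract 3 (0.0630).

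The 11 genes with a smarc symbol, smarcal1 and smarcad1a included, were grouped by symbol alone under the name SWI/SNF and ISWI remodellers. By number, though not by share, this group had the most rises of the enzyme families, 5 of 11 genes at each age. A fall was called for 1 of the 11 at 5 dpf and for none at 8 dpf. Their share of rises was 45.5% at both ages, beside 24.2% of all genes at 5 dpf and 19.6% at 8 dpf. Smaller families had higher shares at 5 dpf: 66.7% in PRC2 and the CHD remodellers, 60.0% in the histone deacetylases and 50.0% in the DNA methyltransferases. At 8 dpf only the DNA methyltransferases, again at 50.0%, had a higher share among the enzyme families. smarca5, the ATPase of the ISWI complexes, was at 1.21, 1.05 and 1.11 in PTU extracts at 5 dpf, against 0.09, -0.18 and 0.09 in control extracts, and at 0.66, 0.23 and 0.31 in PTU extracts at 8 dpf, against -0.15, -0.21 and -0.35 in control extracts. Its 3 PTU extracts lay above all controls at both ages. The rise was 1.12 ± 0.07 at 5 dpf (2.17-fold, adjusted p = 1.38e-08) and 0.67 ± 0.08 at 8 dpf (1.59-fold, adjusted p = 1.1e-05), and all direct arrays were positive. The difference of the effects, 8 minus 5 dpf, was -0.45 ± 0.10 (adjusted p = 0.00842), but without 5-dpf PTU extract 1 or 8-dpf control extract 3 the adjusted p was 0.0955 and 0.0601. The 3 probes of smarca5 agreed in sign at both ages and differed in size, with 0.78, 1.13 and 1.43 at 5 dpf and 0.18, 0.55 and 1.29 at 8 dpf.

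Among the SWI/SNF subunits, smarcc1a, a core scaffold, rose by 0.71 ± 0.10 at 5 dpf (adjusted p = 4.6e-05), with 0.74, 0.72 and 0.71 in PTU extracts, against 0.05, -0.12 and 0.06 in control extracts. At 8 dpf its value of 0.37 (adjusted p = 0.0208) rested on 8-dpf PTU extract 1, whose level was 0.79 beside 0.21 and 0.29 in the other PTU extracts and 0.23, 0.02 and 0.04 in control extracts. Without it the value was 0.18 (adjusted p = 0.257), and the call was also lost without 8-dpf control extract 1 or 2 or 5-dpf PTU extract 1. smarca4a, the Brg1 ATPase, rose by 0.36 and 0.30 (adjusted p = 0.000148 and 0.00254), although its 3 probes did not agree at 5 dpf, where they gave 0.70, 0.79 and -0.43. smarcd1 rose by 0.33 and 0.28 and smarce1 by 0.33 and 0.22, with the calls at 8 dpf lost without 3 extracts each and weakest without 8-dpf control extract 3 (adjusted p = 0.105 and 0.126). The 3 probes of each did not agree in sign at 8 dpf, from -0.02 to 0.45 for smarcd1 and -0.03 to 0.65 for smarce1. smarca2, the ATPase that takes the place of Brg1 in some complexes, fell by 0.25 at 5 dpf (adjusted p = 0.0177, lost without 4 extracts, weakest without 5-dpf PTU extract 1 at adjusted p = 0.112) and was at -0.23 at 8 dpf (adjusted p = 0.0619).

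Of the 6 CHD remodellers, 4 rose at 5 dpf and 1 at 8 dpf, or 66.7% and 16.7%, beside 24.2% and 19.6% of all genes. chd4a, an ATPase of the deacetylase complex NuRD, rose by 0.48 ± 0.07 at 5 dpf (adjusted p = 4.05e-05) and by 0.27 at 8 dpf (adjusted p = 0.0122), where it was at 0.18 without 8-dpf PTU extract 1 (adjusted p = 0.136) and also lost its call without 8-dpf control extract 2 or 3. Its 4 probes ran from 0.17 to 0.63 at 5 dpf and from -0.09 to 0.77 at 8 dpf, where they did not agree in sign. chd4b rose by 0.32, chd1 by 0.29 and chd8 by 0.22 at 5 dpf (adjusted p = 0.00322, 0.0055 and 0.00385, that of chd1 being 0.0542 without 5-dpf PTU extract 1). At 8 dpf chd8 was at -0.11 and the effect differed from that at 5 dpf by -0.33 (adjusted p = 0.0107; 0.0791 without 5-dpf PTU extract 1 and 0.0612 without 8-dpf control extract 3). The ARID genes arid2, arid3b and arid4a were called at neither age.

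The histone methyltransferases of the SET domain group held one of the largest falls. setd7, a lysine methyltransferase of histone H3 and of other proteins, was at -1.07, -1.04 and -1.12 in PTU extracts at 5 dpf, against 0.03, -0.12 and 0.10 in control extracts, a fall by 1.08 ± 0.08 (2.12-fold, adjusted p = 6.71e-08). At 8 dpf it was at -0.51, -0.27 and -0.05 in PTU extracts, against -0.01, 0.16 and 0.01 in control extracts. The groups still did not overlap, but the gap was small. The fall by 0.35 at 8 dpf (adjusted p = 0.00761) was lost without 8-dpf PTU extract 1 (-0.19, adjusted p = 0.148) or 8-dpf control extract 2 (adjusted p = 0.0523). The difference of the effects, 8 minus 5 dpf, was 0.74 ± 0.12 (adjusted p = 0.000853), a call kept without any extract. Both probes of setd7 agreed, at -1.13 and -1.04. setdb1b, which methylates histone H3 in heterochromatin, rose by 0.42 ± 0.06 at 5 dpf (adjusted p = 3.06e-05) and by 0.20 at 8 dpf (adjusted p = 0.0260, lost without 6 extracts and at 0.12 with adjusted p = 0.244 without 8-dpf PTU extract 1), while setdb2 fell by 0.33 ± 0.06 (adjusted p = 0.000368). kmt5ab, which sets the first methyl group on histone H4, rose by 0.32 and 0.46 at the 2 ages (adjusted p = 0.0108 and 0.0036). The call at 5 dpf was lost without 5-dpf control extract 2 (adjusted p = 0.0777) or 5-dpf PTU extract 1 (0.0672). Its paralog kmt5aa rose by 0.21 at 8 dpf only (adjusted p = 0.037, lost without 7 extracts, weakest at 0.14 with adjusted p = 0.339 without 8-dpf control extract 3). setd5 rose by 0.23 at 5 dpf (adjusted p = 0.0334, lost without 6 extracts, weakest without 5-dpf control extract 3 at adjusted p = 0.139), and setd1a, setd1ba, setd3, setd4, setd6 and setdb1a were called at neither age.

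kmt2a, the trithorax type methyltransferase also known as mll, was the only gene not called at 5 dpf that fell at 8 dpf. It was at 0.27 at 5 dpf (adjusted p = 0.0934) and at -0.43 at 8 dpf (adjusted p = 0.028) and the effects differed by -0.69 ± 0.19 (adjusted p = 0.018). All 6 of its probes were positive at 5 dpf and negative at 8 dpf, but the extracts overlapped at 8 dpf, with 0.62, 0.15 and -0.07 in PTU eyes, against 0.87, 0.33 and 0.84 in control eyes. The fall lost its call without 6 extracts and was -0.20 without 8-dpf control extract 3 (adjusted p = 0.404), -0.27 without 8-dpf PTU extract 3 (adjusted p = 0.214), -0.66 without 8-dpf control extract 2 and -0.71 without 8-dpf PTU extract 1. The difference lost its call without 7 extracts (weakest without 8-dpf control extract 3, adjusted p = 0.147).

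The 13 histone demethylases had 2 rises and 2 falls at 5 dpf and 1 fall at 8 dpf. Each direction held 15.4% of them at 5 dpf, beside 24.2% rising and 22.8% falling of all genes. At 8 dpf 7.69% fell, beside 13.2%. kdm4c, a demethylase of histone H3, fell at both ages, by 0.19 (adjusted p = 0.0165, lost without 5-dpf control extract 1 or 2 or 5-dpf PTU extract 1, weakest without the last of these at adjusted p = 0.155) and by 0.31 ± 0.07 (adjusted p = 0.00227). The fall at 8 dpf was kept without any extract, and the levels at 8 dpf were 0.13, 0.21 and 0.13 in PTU extracts, against 0.34, 0.54 and 0.49 in control extracts. kdm2bb fell by 0.28 and kdm5c and kdm7aa rose by 0.24 and 0.26 at 5 dpf, calls lost without 7, 5 and 7 extracts (weakest without 5-dpf PTU extract 1 for kdm2bb and kdm5c, adjusted p = 0.167 and 0.183, and without 5-dpf control extract 2 for kdm7aa, 0.241). The direct arrays of kdm5c at 5 dpf gave 0.38, 0.44 and 0.41 with PTU in Cy3 and 0.11, 0.19 and -0.02 with PTU in Cy5. kdm1a, which acts on histone H3 within corepressor complexes, was at 0.11 and 0.01, and kdm6bb, which removes the mark set by ezh2, was at 0.17 and 0.14, neither of them called.

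The bromodomain genes showed the clearest case of probes that disagree. brd7, a SWI/SNF subunit, rose by 0.32 ± 0.07 at 5 dpf (adjusted p = 0.00188) and brd8b by 0.30 (adjusted p = 0.0155, lost without 4 extracts, weakest without 5-dpf PTU extract 1 at adjusted p = 0.141), while brd2b fell by 0.35 (adjusted p = 0.0482, lost without 8 extracts, weakest at -0.28 with adjusted p = 0.202 without 5-dpf PTU extract 3). brd2a, a reader of acetylated histones, came out at 0.15 at 5 dpf (adjusted p = 0.0453) and -0.26 at 8 dpf (adjusted p = 0.00554). Of its 8 probes, 7 were positive at 5 dpf (0.04 to 0.45) and 1 was at -0.86, and all 8 were negative at 8 dpf (-0.66 to -0.10). The rise at 5 dpf was lost without 10 of the 12 extracts, weakest at 0.08 with adjusted p = 0.325 without 5-dpf control extract 2, and turned to a fall of -0.86 when the most variable probe stood for the gene, whereas the fall at 8 dpf was lost without 8-dpf control extract 3 only (adjusted p = 0.0650). brd1b, brd3a, brd3b and brd9 were called at neither age.

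**Figure D3:**
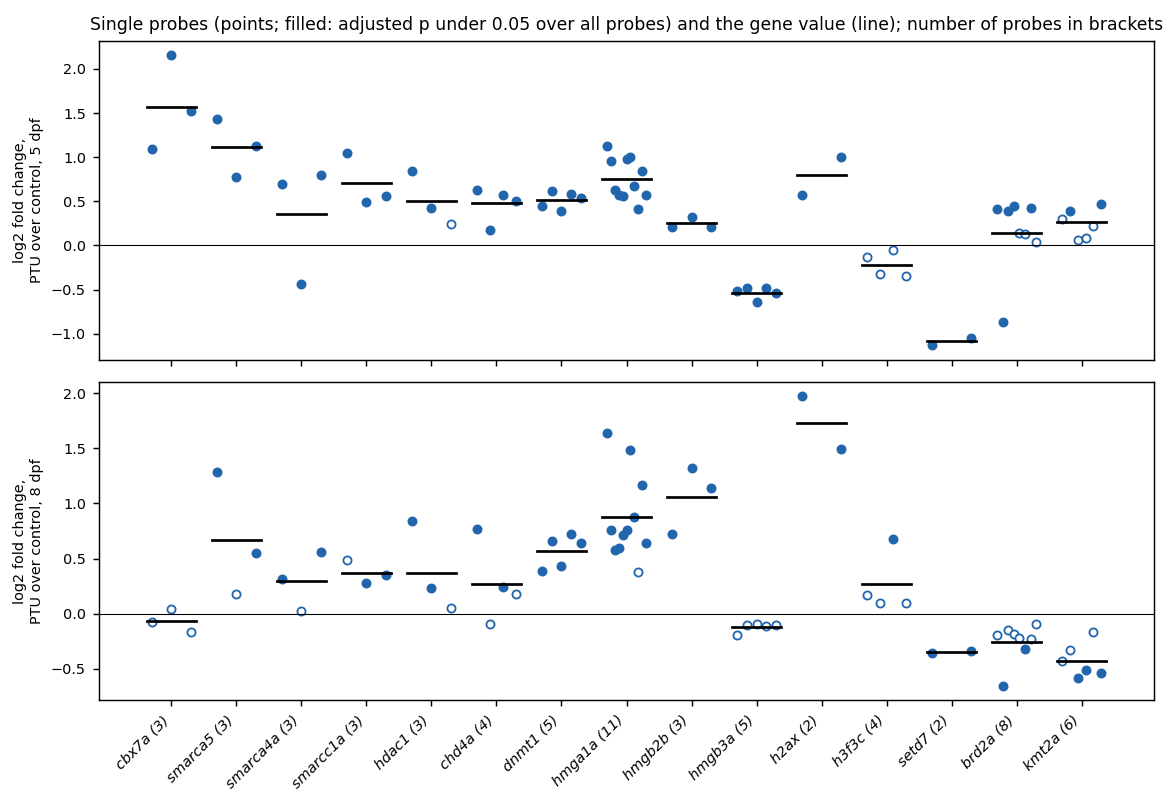
Log2 fold change of PTU over control for each probe (points, filled where the adjusted p over all probes was under 0.05) and for the gene (line) at 5 dpf (top) and 8 dpf (bottom), for 15 chromatin genes, with the number of probes in brackets. The probes of dnmt1, hmga1a, hmgb3a and setd7 lie on 1 side of 0 at both ages, while 1 probe each of smarca4a and brd2a lies below 0 at 5 dpf and the others above.

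With the test and thresholds of the study's methods, applied to single probes (adjusted p under 0.05 and a log2 size over 0.75), 20 of the 243 probes were differentially expressed at 5 dpf and 18 at 8 dpf. That is 8.23% and 7.41% of the chromatin probes, beside 8.82% and 6.39% of all probes. The 5 dpf probes came from 11 genes, 15 of them up-regulated and 5 down-regulated, and those of 8 dpf came from 10 genes, all 18 up-regulated. hmga1a gave 5 of these probes at 5 dpf and 6 at 8 dpf, and cbx7a and smarca5 gave 3 each at 5 dpf. brd2a and smarca4a were the 2 genes with probes of both signs that passed the adjusted p of 0.05 at 5 dpf, and no gene had such probes at 8 dpf.

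The high mobility group genes encode small proteins that bend DNA (HMGB), bind AT-rich grooves (HMGA) or loosen nucleosomes (HMGN). hmga1a, which is known from dividing and undifferentiated cells, rose by 0.75 ± 0.11 at 5 dpf (1.69-fold, adjusted p = 6.6e-05) and by 0.87 ± 0.13 at 8 dpf (1.83-fold, adjusted p = 8.23e-05), and its 11 probes were all higher at both ages. Its levels were 0.79, 0.59 and 0.87 in PTU extracts, against 0.09, -0.19 and 0.09 in control extracts at 5 dpf, and -0.30, -0.12 and -0.16 in PTU extracts, against -1.20, -1.02 and -1.02 in control extracts at 8 dpf. hmga1b and hmga2 were not called. The direct arrays of hmga1b at 5 dpf differed with the dye of the PTU extract. They gave -0.61, -0.59 and -0.66 with PTU in the dye Cy3 and 0.00, 0.03 and -0.01 with PTU in the dye Cy5.

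hmgn2 and hmgb2b were near their controls at 5 dpf and far above them at 8 dpf. hmgn2 was at -0.23, -0.22 and -0.19 in PTU extracts at 5 dpf, against -0.15, -0.23 and 0.37 in control extracts (-0.16, adjusted p = 0.448). At 8 dpf it was at -1.06, -0.32 and -0.31 in PTU extracts, against -2.44, -1.71 and -2.23 in control extracts, a rise by 1.53 ± 0.19 (2.88-fold, adjusted p = 1.74e-05). The effects differed by 1.69 ± 0.25 (adjusted p = 0.000416), and both probes agreed, at 1.59 and 1.46. hmgb2b, a protein of dividing cells, rose by 0.25 at 5 dpf (adjusted p = 0.0097, lost without 5-dpf control extract 2 or 5-dpf PTU extract 1, adjusted p = 0.0753 and 0.0621) and by 1.06 ± 0.08 at 8 dpf (2.09-fold, adjusted p = 1.47e-07) and the effects differed by 0.81 ± 0.11 (adjusted p = 0.000187). At 8 dpf it was at -0.12, -0.21 and 0.08 in PTU extracts, against -1.10, -1.07 and -1.25 in control extracts.

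Other members of these families fell at 5 dpf. hmgn3 was at -0.92, -1.66 and -0.64 in PTU extracts, against 0.17, -0.15 and -0.02 in control extracts, a fall by 1.00 ± 0.22 (adjusted p = 0.00159) with a wide spread, read by 1 probe, and it stood at -0.61 at 8 dpf (adjusted p = 0.0657). The array of 8-dpf PTU extract 1 against 8-dpf control extract 2 gave -1.83 for hmgn3. The other direct arrays of 8 dpf gave -0.40, -0.45 and -0.38. hmgb3a fell by 0.54 ± 0.11 (adjusted p = 0.00113), in all 5 of its probes, and stood at -0.12 at 8 dpf (adjusted p = 0.524). hmgn7 fell by 0.39 ± 0.09 (adjusted p = 0.00322), and by 0.21 without 5-dpf PTU extract 3 (-0.21, adjusted p = 0.0213). hmgb1b fell by 0.31 at 5 dpf (adjusted p = 0.00747) and rose by 0.30 at 8 dpf (adjusted p = 0.026) and the effects differed by 0.61 ± 0.13 (adjusted p = 0.00454). The fall was at adjusted p = 0.0656 without 5-dpf PTU extract 1, the rise lost its call without 6 extracts (weakest at 0.20 with adjusted p = 0.287 without 8-dpf control extract 3) and was 0.50 without 8-dpf PTU extract 1, and the difference was at 0.0517 without 8-dpf control extract 3 and 0.0508 without 5-dpf PTU extract 1. hmgb1a, hmgb2a, hmgb3b and hmgn6 were called at neither age. The direct arrays of hmgb2a at 5 dpf changed sign with the dye. They gave 0.95, 1.15 and 0.25 with PTU in Cy3 and -0.63, -0.98 and -1.44 with PTU in Cy5. Splits by dye are given for example genes only, and were not counted over all members.

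The histone variants had the highest share of rises at 8 dpf, 6 of 9 genes, after 4 of 9 at 5 dpf, and none fell at either age. Their share of rises was 44.4% at 5 dpf, beside 24.2% of all genes, and 66.7% at 8 dpf, beside 19.6%. h2ax, the H2A variant that marks DNA breaks when phosphorylated, was at 0.99, 0.95 and 0.55 in PTU extracts at 5 dpf, against -0.20, -0.20 and 0.40 in control extracts, and at 1.00, 0.10 and 1.07 in PTU extracts at 8 dpf, against -0.76, -1.15 and -1.04 in control extracts. It rose by 0.80 ± 0.22 (adjusted p = 0.0075) and by 1.73 ± 0.24 (3.33-fold, adjusted p = 6.65e-05), the largest rise of the 105 genes at 8 dpf, and the difference of 0.93 ± 0.33 did not pass the test (adjusted p = 0.0612). The direct arrays of 5 dpf were uneven, from 0.29 to 1.77. 5-dpf PTU extract 1 gave 1.77 against control extract 2, with PTU in Cy3, and 0.29 against control extract 3, with PTU in Cy5. 5-dpf PTU extract 2 gave 1.73 in Cy3 and 0.57 in Cy5, and extract 3 gave 0.47 and 0.44. Between the 2 arrays of each PTU extract, the dye and the control extract changed together. Over the 6 direct arrays, though, each extract was once in each dye. The values were 1.73, 1.77 and 0.47 with PTU in Cy3 and 0.57, 0.29 and 0.44 with PTU in Cy5. What part the dye had in these values was not tested. h2az2b, an H2A.Z variant found at gene starts, was at 0.25 at 5 dpf (adjusted p = 0.103) and rose by 1.09 ± 0.14 at 8 dpf (2.13-fold, adjusted p = 2.2e-05). Its level at 8 dpf was -0.81, -0.26 and -0.13 in PTU extracts, against -1.69, -1.27 and -1.59 in control extracts. Its paralog h2az2a rose by 0.43 at 8 dpf (adjusted p = 0.0137, lost without 5 extracts, weakest at 0.25 with adjusted p = 0.235 without 8-dpf control extract 3). Among the genes of the H3 variant that is laid down outside replication, h3f3a rose by 0.68 ± 0.12 at 8 dpf only (adjusted p = 0.000574), h3f3b.1 rose by 0.47 ± 0.11 and 0.69 ± 0.12 (adjusted p = 0.0024 and 0.000474), and h3f3c was called at neither age. The direct arrays of h3f3b.1 at 5 dpf gave 0.49, 0.96 and 0.63 with PTU in Cy3 and 0.27, 0.35 and 0.08 with PTU in Cy5. h3f3d rose by 0.61 at 5 dpf (adjusted p = 0.0213), but its PTU extracts spread over 0.99, 0.09 and 0.51, and without 5-dpf PTU extract 1 it was at 0.28 (adjusted p = 0.402). Its call was also lost without 5-dpf PTU extract 3 (adjusted p = 0.0552) or 5-dpf control extract 1 (0.0777) or 3 (0.101). These genes encode near-identical proteins, and whether their probes share signal was not tested. macroh2a1, a variant of silent chromatin, rose by 0.19 at both ages (adjusted p = 0.0189 and 0.0435, lost without 4 and 10 extracts, weakest without 5-dpf control extract 1 at 0.164 and without 8-dpf control extract 3 at 0.189), and macroh2a2 was not called.

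**Figure D4:**
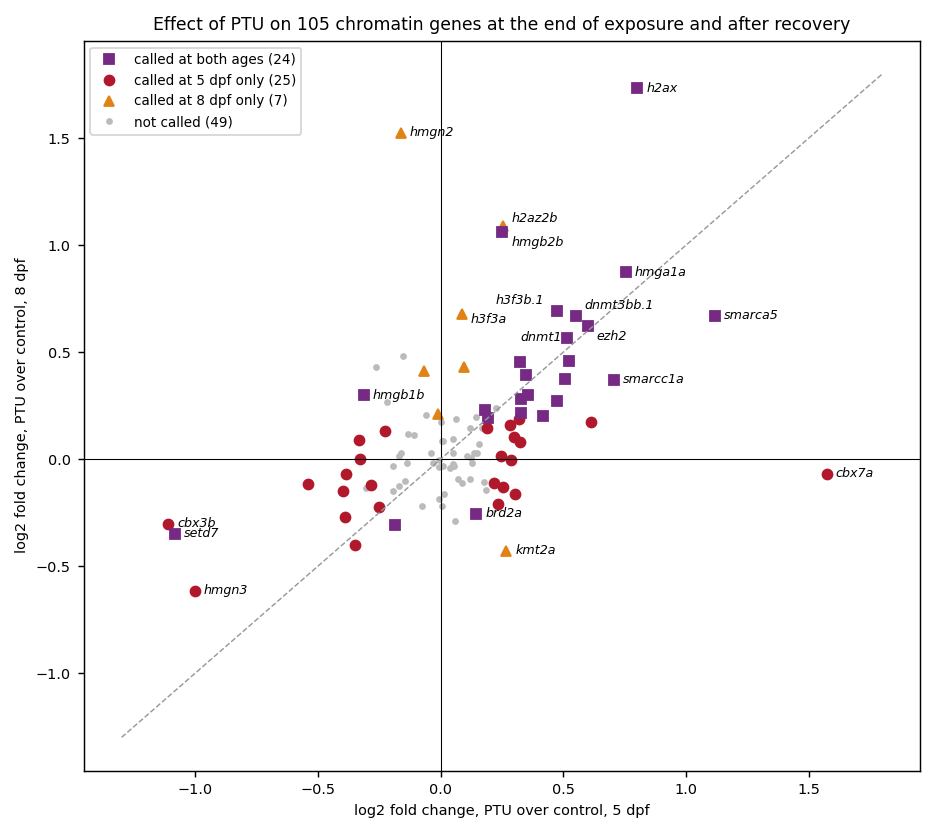
Log2 fold change of PTU over control at 5 dpf (x axis) and at 8 dpf (y axis) for the 105 chromatin genes, marked by the ages at which the adjusted p was under 0.05, with a dashed line where both effects are equal. The 2 axes use different extracts. cbx7a lies at the far right near 0 on the y axis, cbx3b and setd7 at the far left, h2ax, hmgn2, h2az2b and hmgb2b above the line, and ezh2, dnmt1 and hmga1a close to it.

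The difference between the PTU effects at the 2 ages was tested for every gene. It was more positive at 8 dpf for 11 of the 105 genes (10.5%, beside 11.9% of all genes) and more negative for 7 (6.67%, beside 6.92%), so these shares lay near those of all genes. The calls kept without any extract were 4 of the 11 (cbx3b, hmgb2b, hmgn2 and setd7) and 1 of the 7 (cbx7a). The count of 11 was 4 without 8-dpf control extract 3 or 5-dpf PTU extract 1, 6 without 8-dpf PTU extract 3 and 7 without 5-dpf control extract 3. In the same order, 5.33%, 4.84%, 6.32% and 8.76% of all genes were called more positive. The count of 7 was 1 without 5-dpf PTU extract 1, 2 without 8-dpf control extract 3, 4 without 5-dpf control extract 1 or 8-dpf PTU extract 2 or 3, 12 without 8-dpf control extract 2 and 15 without 8-dpf PTU extract 1. In the same order, 2.1%, 3.07%, 3.77%, 4.52%, 3.69%, 9.22% and 9.38% of all genes were called more negative.

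In control eyes, 21 of the 105 chromatin genes were lower at 8 than at 5 dpf (20.0%, beside 7.05% of all genes) and 5 were higher (4.76%, beside 4.67%), and the median was -0.081, against -0.002 over all genes. Of the 21, 12 were histone variants or HMG genes: 6 of 9 histone variants, 3 of 4 HMGN, 2 of 6 HMGB and 1 of 3 HMGA genes. The log2 fold change of 8 over 5 dpf was -1.92 ± 0.23 for hmgn2 (3.78-fold lower, adjusted p = 0.000118), -1.45 ± 0.17 for h2az2b (adjusted p = 9.48e-05), -1.15 ± 0.10 for hmgb2b (adjusted p = 1.78e-05) and -1.11 ± 0.16 for hmga1a (adjusted p = 0.000415). These 4 were the only lower calls kept without each extract, and cbx7a was the only higher one. Beside cbx7a, the genes that were higher at 8 dpf were kmt2a by 0.58, kdm4c by 0.49, smarca2 by 0.38 and brd2a by 0.27 (adjusted p = 0.0456, 0.00149, 0.0399 and 0.0348), which lost their calls without 10, 1, 10 and 10 extracts (weakest for kmt2a and brd2a without 5-dpf PTU extract 1, adjusted p = 0.504 and 0.497, and for kdm4c and smarca2 without 5-dpf control extract 1, adjusted p = 0.188 and 0.398).

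The count of 21 was 4 without 5-dpf control extract 1, 5 without 5-dpf PTU extract 1, 7 without 8-dpf control extract 1, 10 without 8-dpf control extract 3 and 12 without 8-dpf PTU extract 2 or 3. The share of all genes called lower fell with it, from 7.05% to 1.07%, 2.0%, 3.32%, 4.18%, 3.98% and 5.33% in the same order. The count of 5 ran from 1 without 5-dpf control extract 1 to 8 without 8-dpf PTU extract 1, with 2 or 3 without all others except 8-dpf control extract 2 (4). At these ends 0.426% and 6.35% of all genes were called higher, against 4.67% with all extracts. Other genes moved in the same comparison. Lower in control eyes at 8 dpf were 17 of 31 photoreceptor genes (median -0.79), 4 of 5 erythrocyte genes (median -1.33), 4 of 11 pigment genes (median -0.52) and 3 of 20 genes of skin and cornea, and none of these lists had a gene called higher. The part of these cells in the 21 calls was not tested. The 2 ages were joined by only 4 arrays, and 5-dpf PTU extract 1 and 5-dpf control extract 1 were on 4 arrays each. All 4 joining arrays had 1 of these 2 extracts as their 5-dpf side. Only 1 of them set control against control, 5-dpf control extract 1 against 8-dpf control extract 2. Only 1 set PTU against PTU, 5-dpf PTU extract 1 against 8-dpf PTU extract 3. The comparisons of the ages, in control and in PTU eyes, thus rested on these 2 extracts for their link.

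In PTU eyes, 15 of the 105 genes were lower at 8 than at 5 dpf (14.3%, beside 6.69% of all genes) and 6 were higher (5.71%, beside 8.77%). smarca5 was at -0.79 ± 0.10 (adjusted p = 0.000164) and setd7 at 0.83 ± 0.11 (adjusted p = 0.0003), and these were the only calls kept without each extract. hmga1a was at -0.99 ± 0.16 (adjusted p = 0.00095, and 0.105 without 5-dpf PTU extract 1). cbx7a was at -0.55 ± 0.12 (adjusted p = 0.00725), but at -0.25 without 5-dpf PTU extract 1 (adjusted p = 0.484) and no longer called without 8-dpf PTU extract 3 (adjusted p = 0.0998). hmgn2 was at -0.23 ± 0.23 (adjusted p = 0.575) and h2ax at -0.11 ± 0.31 (adjusted p = 0.864) in PTU eyes, beside -1.92 and -1.04 in control eyes, the second of which lost its call without 10 extracts (weakest at -0.78 with adjusted p = 0.453 without 5-dpf control extract 1). In the same comparison 20 of 27 lens genes, 11 of 14 macrophage genes, 3 of 31 photoreceptor genes and 3 of 11 pigment genes were higher at 8 dpf in PTU eyes, while 9 of 19 muscle genes, 4 of 5 erythrocyte genes, 4 of 20 genes of skin and cornea, 12 of 35 genes of DNA replication and the cell cycle and 1 photoreceptor gene were lower. Their part in the values of the chromatin genes was not tested.

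**Figure D5:**
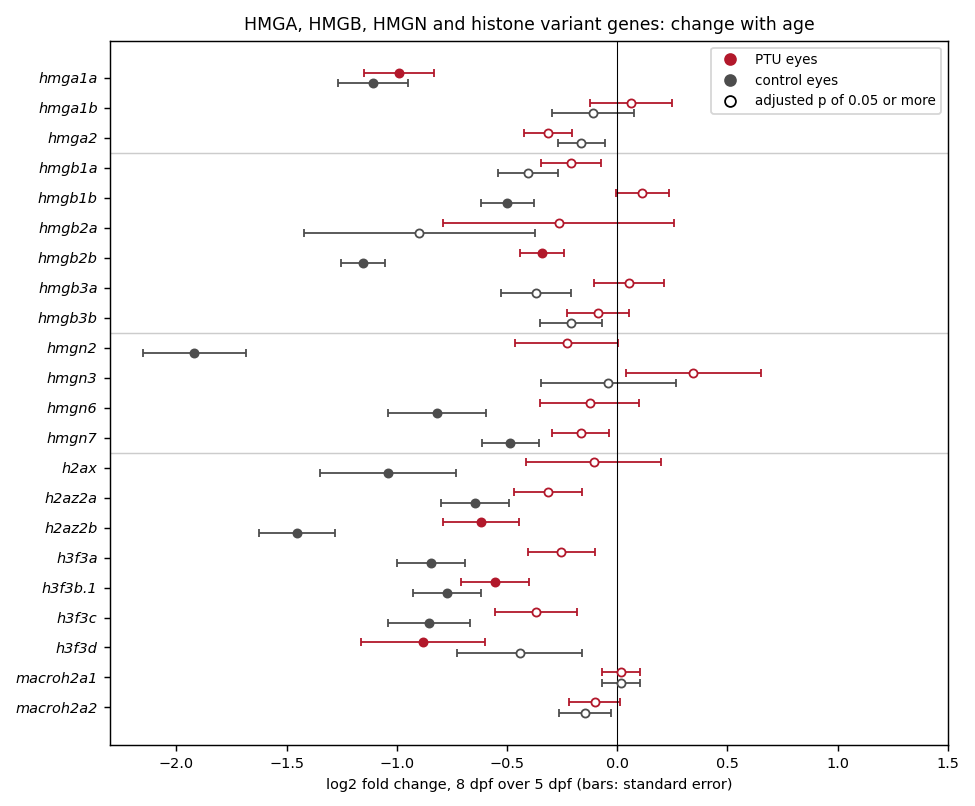
Log2 fold change of 8 dpf over 5 dpf (x axis, with SE) in PTU eyes (red, upper) and control eyes (grey, lower) for the 22 HMGA, HMGB, HMGN and histone variant genes. In hmgn2, h2az2b and hmgb2b the value of control eyes lies far to the left of that of PTU eyes, while in hmga1a both lie near -1.

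Other genes of chromatin, from a list of 109 symbols outside the rule, were measured for 63. At 5 dpf 29 rose and 5 fell, with a median of 0.17, and at 8 dpf 20 rose and 3 fell, with a median of 0.09. As shares these were 46.0% and 7.94% at 5 dpf, beside 24.2% and 22.8% of all genes. At 8 dpf they were 31.7% and 4.76%, beside 19.6% and 13.2%. rbbp4, a histone chaperone that is part of PRC2, NuRD and the chromatin assembly factor, rose by 1.02 at 5 dpf and 0.98 at 8 dpf. aebp2, an accessory subunit of PRC2, rose by 0.52 and 0.56, prmt5, an arginine methyltransferase, by 0.70 and 0.65, and chaf1a, a subunit of the chromatin assembly factor, by 0.47 and 0.42. uhrf1, which brings dnmt1 to new DNA, rose by 0.21 and 0.38, with the call at 5 dpf lost without 5-dpf PTU extract 1 (0.17, adjusted p = 0.213) or 5-dpf control extract 1 or 2. baz1b and baz1a, partners of smarca5, rose by 0.67 and 0.52 at 5 dpf and were at -0.16 and 0.13 at 8 dpf, where neither was called. kat5a, a histone acetyltransferase, fell by 0.49 and 0.62. The other calls of these 8 genes at the 2 ages were kept whichever extract was left out.

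Genes of DNA replication and the cell cycle also moved with PTU and with age. Of 46 listed, 35 were measured. Of these, 25 rose and none fell at 5 dpf (median 0.31), and 33 rose and none fell at 8 dpf (median 0.47). The rises were 71.4% and 94.3% of the list, beside 24.2% and 19.6% of all genes. Their mean level ran from 0.21 to 0.36 in PTU extracts and from -0.11 to 0.10 in control extracts at 5 dpf, and from -0.07 to 0.17 in PTU extracts and from -0.53 to -0.37 in control extracts at 8 dpf. In control eyes 23 of the 35 were lower at 8 than at 5 dpf (65.7%, beside 7.05% of all genes) and none was higher. The mean levels of this list in PTU and control extracts did not overlap at either age. The same held for the lists of lens genes, macrophage genes and chromatin genes outside the rule. What part the number of dividing cells had in the values of the chromatin genes was not tested.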

How the data were processed

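Eyes of zebrafish larvae were profiled on 14 Agilent arrays with 2 colours. The deposited values are log2 Cy5/Cy3 ratios per probe, which the authors made from GenePix intensities with normexp background correction and loess within each array in limma 3.34.4. The log base and the direction come from the methods and the dye labels, since the table states neither. The authors left out spots below background on all arrays. No intensities were used here, so depth is replaced by the number of arrays as the limit of precision.

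Probes were named through the platform annotation, updated to current symbols (11865 by accession, 1446 by symbol, 391 by an older symbol), and 3205 had no gene symbol. The platform annotation gives no genome build, so no coordinates are given. Probes of a gene were averaged and fitted in limma 3.58.1 (R 4.3.3) over 14 arrays, with a random effect per RNA extract (ratio of extract to array variance 0.1378, 11 residual degrees of freedom) and Benjamini-Hochberg correction over 8445 genes. Single probes were tested as in the study's methods, with arrays independent. The script was tested on simulated data. Extract levels came from least squares over the arrays. The 3 plates per group are separate samples. Alternatives were a dye term, independent arrays, arrays scaled to 1 spread, only the arrays that carry both groups, the most variable probe, other fold thresholds, a replicate block and each extract left out. Named were the largest called changes (up to 12 rises and 12 falls at 5 dpf, 8 and 8 at 8 dpf, where only 4 fell, and 4 and 4 in control eyes), up to 6 smallest p-values of the difference in each direction, all Polycomb and DNA methylation genes, and others as examples of their family. Members and lists were chosen with earlier results of these data known.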

Additional observations from a re-analysis of the deposited data

Results flagged for a closer look

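The effect of PTU differed between 8 and 5 dpf, by the test of the difference itself at an adjusted p under 0.05, for 18 chromatin genes. The difference (log2 fold change at 8 dpf minus that at 5 dpf) was 1.69 for hmgn2, 0.84 for h2az2b, 0.81 for hmgb2b, 0.81 for cbx3b, 0.74 for setd7, 0.61 for hmgb1b, 0.59 for h3f3a, 0.48 for sirt2, 0.42 for cbx1b, 0.36 for bmi1b and 0.33 for setdb2. It was -1.64 for cbx7a, -0.69 for kmt2a, -0.47 for hdac4, -0.45 for smarca5, -0.44 for setd5, -0.40 for brd2a and -0.33 for chd8. Only the calls of hmgn2, hmgb2b, cbx3b, setd7 and cbx7a were kept whichever extract was left out. The others were lost without 10 extracts for sirt2 (weakest adjusted p = 0.149), 9 for setd5 (0.163), 8 for bmi1b, h3f3a and hdac4 (0.202, 0.136 and 0.182), 7 for kmt2a and setdb2 (0.147 and 0.136), 4 for cbx1b (0.182), 3 for h2az2b (0.0648) and 2 for chd8, hmgb1b and smarca5 (0.0791, 0.0517 and 0.0955). These weakest values came without 8-dpf control extract 3 for sirt2, setd5, hdac4, kmt2a, setdb2 and hmgb1b, without 5-dpf control extract 1 for h2az2b, and without 5-dpf PTU extract 1 for bmi1b, h3f3a, cbx1b, chd8 and smarca5. brd2a lost its call without 5-dpf PTU extract 1 only (0.0508). For hmgn2, hmgb2b, h2az2b and h3f3a the control eyes differed more between 8 and 5 dpf than the PTU eyes did, while for setd7 and cbx3b it was the PTU eyes that differed more. For cbx7a the control eyes were higher and the PTU eyes lower at 8 dpf.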

How the results depend on the processing

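Leaving out each extract in turn gave 20 to 38 chromatin genes that rose and 7 to 16 that fell at 5 dpf, 18 to 27 that rose and 3 to 10 that fell at 8 dpf, 4 to 16 with a more positive and 1 to 15 with a more negative effect at 8 dpf, and 1 to 8 that were higher and 4 to 20 that were lower at 8 dpf in control eyes. The shares of all genes moved too, with 15.6% to 25.8% rising and 15.7% to 24.2% falling at 5 dpf. At 8 dpf 11.9% to 20.2% of all genes rose and 8.32% to 14.0% fell. More positive effects ran from 4.84% to 15.4% of all genes and more negative ones from 2.1% to 9.38%. In control eyes 0.426% to 6.35% of all genes were higher and 1.07% to 9.53% lower at 8 dpf. With only the arrays that carry both groups, 14 rose and 1 fell at 8 dpf, beside 11.5% and 6.81% of all genes. The falls at 8 dpf numbered 9 with a dye effect, 10 with arrays as independent and 11 without the array of largest residual spread. Of all genes 16.6%, 15.7% and 14.7% then fell, in the same order. The last of these alternatives was chosen after seeing the data. It also gave 13 more negative effects, beside 9.77% of all genes. With the most variable probe of each gene, 4 effects were more negative at 8 dpf, beside 5.68% of all genes. Under this setting 2 genes were higher at 8 dpf in control eyes, beside 4.11% of all genes. brd2a turned from a rise to -0.86 at 5 dpf, with a difference of 0.20 between the ages. Without a fold threshold 130 of the 243 chromatin probes at 5 dpf and 84 at 8 dpf were called, and over a log2 size of 1 the counts were 12 and 11. All probes were not counted at these thresholds, so these counts have no share beside them. Deviations of same-numbered extracts from their group means had r from -0.232 to 0.627, the highest for PTU and control extract 1 of 8 dpf, which share an array. Other same-numbered extracts that share an array had lower values. PTU and control extract 3 had -0.092 at 5 dpf and -0.221 at 8 dpf, and 5-dpf PTU extract 1 and 8-dpf control extract 1 had 0.132. In no pair of groups did all 3 numbers pass an r of 0.1, so the numbers were not taken to pair the samples. A replicate block gave 34 rises and 13 falls at 5 dpf, 26 and 5 at 8 dpf, 11 more positive and 7 more negative effects, 4 genes higher and 15 lower at 8 dpf in control eyes, and 20 and 17 probes at the 2 ages. Of the values of the 105 genes and of the 8 other chromatin genes named, over 5 comparisons and all alternatives, 10713 kept their side of the threshold, 553 lost the call, 258 gained it and 2 reversed, both of brd2a. The causes were not tested. Precision is limited by 3 extracts per group, the 4 arrays that join the ages, and the lack of intensities, so that dim probes cannot be told from bright ones.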
